A study of Homo sapiens with 6 samples.

Results

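The NFAT family holds 5 genes, and all 5 (NFAT5, NFATC1, NFATC2, NFATC3 and NFATC4) were found by symbol among the 57905 genes counted. The RNA came from H929 cells and was kept with or without IRE1 after extraction. NFAT5 was selected on its log2 fold change after IRE1, one of the lowest, and the calcineurin-regulated NFATC genes were set beside it as its relatives. Since the contrast between IRE1-treated and control libraries chose NFAT5, its values in that contrast are given as a description, with no test for any of the 5 genes. In these data 4 of the 5 genes passed the filter on low counts, which left 14398 genes in the test. The filter removed NFATC4, which had no count in any of the 6 libraries.

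NFAT proteins are transcription factors whose DNA-binding domain is related to that of the NF-kB/Rel proteins. NFATC1 to NFATC4 wait in the cytoplasm in phosphorylated form. When calcium rises, for instance after a B or T cell receptor is engaged, calmodulin activates the phosphatase calcineurin, which strips the phosphates and lets the factor enter the nucleus. NFAT5, also named TonEBP, lacks the calcineurin docking region, responds to hypertonic stress and switches on genes that let a cell accumulate osmolytes. IRE1, encoded by ERN1, is the kinase and RNase of the endoplasmic reticulum that splices XBP1 mRNA when unfolded protein accumulates, and that can also cut other mRNAs within a CNGCAG consensus held in the loop of a hairpin.

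H929 (NCI-H929) is a human multiple myeloma line (malignant plasma cells kept in culture), and nothing else was done to the cells of either group. Total RNA of the line was kept in cleavage buffer either with a recombinant cytoplasmic part of human IRE1 (3 IRE1-treated samples) or without the enzyme (3 control samples), was heated to stop the reaction and was then purified for poly(A) RNA before stranded libraries were made. The RNA was cut in a tube, outside the cell. A cut mRNA loses the part on the 5′ side of the cut at the poly(A) step and keeps the part on the 3′ side, so the count of a gene, summed over its whole length, falls only in part. The samples were bulk RNA, so for a level in the control RNA, fewer cells with a transcript and less of it per cell cannot be told apart. The enzyme was added after extraction and could change neither. Each library was run on its own lane, so that lane and sample cannot be told apart either.

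The 6 libraries held 19615715 to 25678499 counts on genes. All 9 plasma cell markers passed the filter, with summed normalized counts of 250364 to 255446 in the controls and 250468 to 267895 after IRE1. The treated libraries differed more among themselves than the controls did. The chi-square per gene between libraries was 2.20 to 3.05 among the controls and 3.40 to 11.1 among the IRE1-treated libraries. The third treated library was nearest to the second (3.40), and it was nearer to the controls (7.99 to 10.1) than to the first treated library (11.1). The T cell markers CD3D and CD3G had at most 1 and 3 counts, although CD3E had 890 to 1063, and the B cell marker MS4A1 had at most 1. Of the 2 known substrates, BLOC1S1, a subunit of a lysosome-related complex, fell from 612.5 to 238.9 normalized counts (log2 fold change -1.37, SE 0.0950, edgeR adjusted p = 1.25e-06). The gene count of XBP1, summed over both sides of its splice sites, had a log2 fold change of -0.09 (SE 0.0436, edgeR adjusted p = 0.143). By exon, the paper reports fewer XBP1 reads after IRE1 on the 5′ side of the cleavage sites, and similar reads on the 3′ side. It also reports lower XBP1 levels by qRT-PCR across these sites.

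The sequences below show what the IRE1 consensus looks like at its known place in XBP1. They also show where its core variant CTGCAG lies in a predicted hairpin loop in the NFAT transcripts. In NFAT5, 4 sites that read CAGCAG were in a loop with 15 and with 25 bases folded on either side. Of these 4, 1 in the coding part and 1 in the 3′ UTR are shown. Each sequence is 30 bases of the sense strand, read from GRCh37, with the 6 bases of the motif in capitals. The search used CNGCAG on the sense strand only, and a site was counted as a hairpin site when RNAfold put the motif's middle G in a loop of 5 to 11 bases on a stem of 3 or more pairs, with 15 bases folded on either side. With 25 bases folded on either side, neither of the NFAT5 CTGCAG sites was in such a loop, nor were the first XBP1 site, the NFATC2 site and the second of the NFATC3 sites. The second XBP1 site, the NFATC1 site, the first NFATC3 site and both CAGCAG sites shown for NFAT5 were. These are matches of letters and of a predicted fold, not cut sites seen in the data. The windows are on the plus strand for NFAT5, NFATC1 and NFATC3 and on the minus strand for NFATC2 and XBP1.
XBP1 first site, coding, chr22:29192126-29192155: ggtctgctgagtCCGCAGcactcagactac
XBP1 second site, coding, chr22:29192100-29192129: ctacgtgcacctCTGCAGcaggtgcaggcc
NFAT5 exon 13, coding, chr16:69726646-69726675: tttcttctcctcCTGCAGtttctggaaatg
NFAT5 exon 15, 3′ UTR, chr16:69731401-69731430: cttctccctgatCTGCAGtgagtataaatt
NFAT5 exon 13, coding, chr16:69727173-69727202: gttcctcaagacCAGCAGtcaaccaacata
NFAT5 exon 15, 3′ UTR, chr16:69732959-69732988: acaaagcaaaccCAGCAGgtataaaaagta
NFATC1 exon 4, coding, chr18:77208803-77208832: gagccgctgatgCTGCAGcttttcattggg
NFATC2 exon 9, coding, chr20:50049227-50049256: ccccactctgatCTGCAGccccacccatgg
NFATC3 exon 10, 3′ UTR, chr16:68260372-68260401: taacagtgcttaCTGCAGccttgtgtccac
NFATC3 exon 10, 3′ UTR, chr16:68261644-68261673: gcccagcagaaaCTGCAGcctgctgtctac

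The longest NFAT transcript is that of NFAT5. Its canonical transcript has 13289 bases, with 4647 coding bases and a 3′ UTR of 8306 bases, and 98.6% of the 12164 canonical coding transcripts of tested genes are shorter. It holds 49 CNGCAG sites, of which 39 read CAGCAG and 8 read CTGCAG. Of these sites 42 are coding, and 25 overlap another site, as happens in runs of CAG. In predicted hairpin loops lie 8 of the 49 (16.3%), 6 in the coding part and 2 in the 3′ UTR, against 14.5% of the 105707 sites in all these transcripts. The hairpin sites at bases 4000 and 4003 overlap each other. The last of the 8 lies at base 7703, and 5581 bases of 3′ UTR follow it.

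A hairpin site is common in such transcripts. At least 1 is found in 60.2% of the 12164 transcripts, and in 89.5% of the 526 that are longer than 10 kb. NFAT5 has more than most of these long transcripts, whose median is 3 and of which 89.7% have fewer than its 8. Per kb it has 0.602 hairpin sites, more than 80.3% of all the transcripts. NFATC3 has 5 hairpin sites among 20 (0.790 per kb), NFATC1 has 3 among 22 (0.616 per kb), NFATC2 has 3 among 19 (0.399 per kb) and NFATC4 has 1 among 14 (0.210 per kb). Per kb, NFAT5 thus lies below NFATC3 and NFATC1. The counts depend on the fold that is asked for. With 25 bases folded on either side NFAT5 has 4 hairpin sites, all of them CAGCAG, and NFATC3 has 1, and with a loop of exactly 7 bases, as at the second XBP1 site, NFATC2 has 2 and the other NFAT transcripts have 0.

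**Figure D1:**
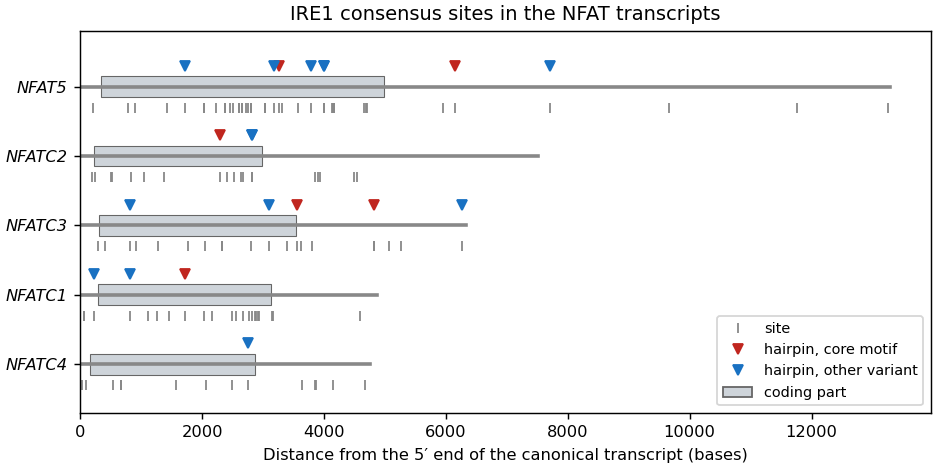
Canonical transcripts of the 5 NFAT genes drawn to scale from the 5′ end in bases. Boxes are coding parts, grey ticks below each line are CNGCAG sites, and triangles above it are sites in a predicted hairpin loop (red for CTGCAG, blue for other variants, some drawn over each other). NFAT5 carries 49 sites and 8 hairpin sites, with none of the hairpin sites in the last 5581 bases.

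NFAT5 (ENSG00000102908, chr16:69598997-69738569, plus strand) had normalized counts of 159, 179 and 164 in the controls and of 63.5, 63.3 and 110 after IRE1. Every IRE1-treated library lay below every control, with a gap of 49.0 normalized counts between the groups. The first and second IRE1-treated libraries lay close together and the third stood between them and the controls. The raw counts behind these values were 189, 186 and 160 in the controls and 53, 60 and 114 after IRE1, so each library measured the gene with 189 counts or fewer. The mean went from 167.6 ± 10.2 to 79.1 ± 27.2 normalized counts (SD, n = 3), which is 47.2% of the control mean, and the log2 fold change was -1.06 (SE 0.176). In the single libraries the count was 37.9%, 37.7% and 65.9% of the control mean.

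The third IRE1-treated library was the highest of the treated libraries in 1336 of the 1781 genes called lower (75.0%), so the position it has for NFAT5 is that of most such genes. Without it the log2 fold change of NFAT5 was -1.40, and without the second IRE1-treated library it was -0.92. The value stayed below 0 in all 15 alternative fits. These fits reused the libraries in which NFAT5 was chosen for its low value, so no support is drawn from this.

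NFATC2 (ENSG00000101096, chr20:50003494-50179370, minus strand), the NFAT gene with the most counts here, had 1689, 1735 and 1629 normalized counts in the controls and 1220, 1283 and 1411 after IRE1. The groups did not overlap, and the third IRE1-treated library was again the nearest to the controls. The mean went from 1684 ± 53.2 to 1305 ± 97.4 (SD, n = 3), or 77.5% of the control, with a log2 fold change of -0.37 (SE 0.0594).

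NFATC3 (ENSG00000072736, chr16:68118654-68263162, plus strand) had a change of like size. Its normalized counts were 900, 866 and 813 in the controls and 623, 634 and 696 after IRE1, with no overlap between the groups. The mean went from 859.7 ± 44.3 to 650.8 ± 39.5 (SD, n = 3), or 75.7% of the control, with a log2 fold change of -0.40 (SE 0.0680).

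NFATC1 (ENSG00000131196, chr18:77155856-77289325, plus strand), which is known for its induction by NFAT itself in lymphocytes, was not lower. It had 327, 332 and 345 normalized counts in the controls and 317, 382 and 368 after IRE1. The groups overlapped, since the first IRE1-treated library lay below all controls and the other two lay above them. The mean was 334.9 ± 9.19 in the controls and 355.8 ± 34.0 after IRE1 (SD, n = 3), with a log2 fold change of 0.09 (SE 0.0895).

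NFATC4 (ENSG00000100968, chr14:24834879-24848810, plus strand) had 0 counts in every library, which allows up to 3 counts per library from counting error alone. No fold change can be given for it.

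**Figure D2:**
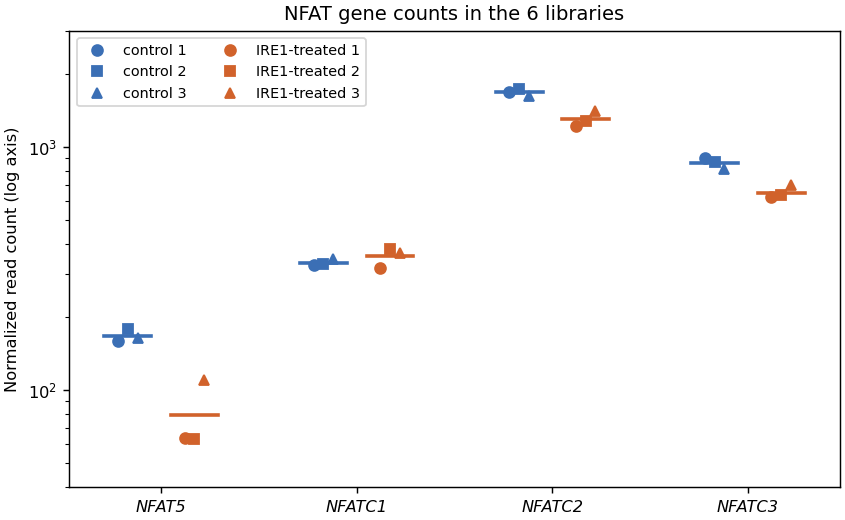
Normalized read counts (log axis) of the 4 NFAT genes with counts, for 3 control and 3 IRE1-treated libraries. Each symbol is 1 library and each horizontal line is the mean of 3. The groups are apart for NFAT5, NFATC2 and NFATC3 and overlap for NFATC1, and the third IRE1-treated library of NFAT5 (110) lies above the other treated libraries (63.3 and 63.5).

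Among the 4 measured genes, 3 were lower in every IRE1-treated library than in every control. Over all tested genes, 20.0% were lower in that way and 19.1% were higher, and nothing is read from the count of 3 because the contrast was used to choose NFAT5. Summed over the family, the normalized counts were 3076, 3113 and 2951 in the controls and 2223, 2362 and 2586 after IRE1. Within that sum NFAT5 took 5.19%, 5.75% and 5.57% in the controls and 2.85%, 2.68% and 4.27% after IRE1. NFATC2 held 55.3% of the sum in the controls and 54.6% after IRE1, and NFATC3 held 28.2% and 27.2%. The share of NFATC1 was 10.6%, 10.7% and 11.7% in the controls and 14.3%, 16.2% and 14.2% after IRE1. A share within a library does not depend on the scaling between libraries, and it shows unequal change within the family, not that any member kept its amount.

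Per length, the NFAT genes differed widely in the control RNA. The level, as counts per base of exon scaled to the same total (as in TPM) over the tested genes, was 31.1, 31.9 and 29.5 for NFATC2 in the 3 controls, 13.8 to 15.6 for NFATC3, 5.50, 5.59 and 5.70 for NFATC1 and 1.20, 1.35 and 1.21 for NFAT5. Every step in this order was larger than the spread between the controls, and the ranges of neighbours did not overlap. The means were 30.8 ± 1.26 for NFATC2, 14.8 ± 0.896 for NFATC3, 5.60 ± 0.101 for NFATC1 and 1.25 ± 0.0811 for NFAT5 (SD, n = 3), beside a median of 11.01 over 14111 genes. NFATC2 was thus 24.6-fold above NFAT5, and only 13.5% of tested genes had a lower level than NFAT5. With the longest annotated transcript as the length in place of all exons, NFATC2 came to 24.7 and NFATC1 to 7.57, and the order was the same.

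**Figure D3:**
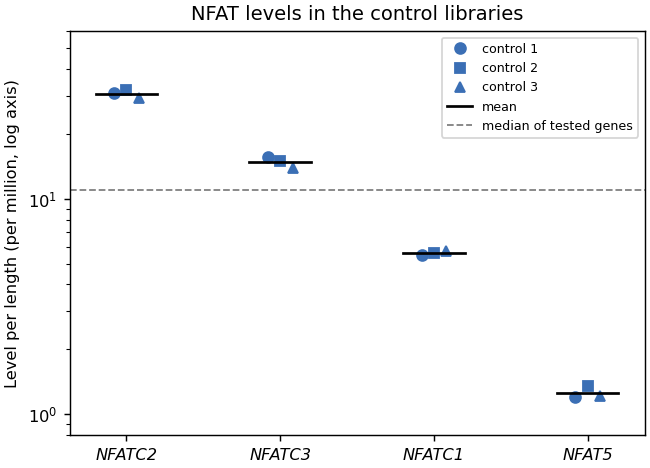
Level per length (counts per base of exon, scaled as TPM over tested genes, log axis) of the 4 NFAT genes with counts in the 3 control libraries, with the mean as a black line. The dashed line is the median of all tested genes (11.01). NFATC2 and NFATC3 lie above it, and NFATC1 and NFAT5 below it.

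The low counts of NFAT5 came from a gene that shares few bases with others. A lncRNA on the same strand covers 7.83% of its exons, with 0 counts of its own, and the miRNA gene MIR1538 on the other strand shares 61 bases with them. NFATC3 shares exons with 4 other annotated genes, the widest of them a lncRNA on the opposite strand over 31.8% of its exons. Pairs that fall on shared bases may have been set aside, depending on the counting mode, which is not given in the sources used here. None of the 4 genes has a pseudogene named after it in the annotation.

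Where genes averaging fewer than 100 normalized counts were set aside, 10293 remained, and NFAT5 had place 3 from the lowest log2 fold change among them. This position was part of what chose it. Below it were BLOC1S1 (-1.37) and AAK1 (-1.20), a kinase of clathrin-mediated endocytosis. Just above it were SMCR8 (-1.04), a partner of C9orf72 in autophagy, UTRN (-1.01), which encodes utrophin, and TRIM56 (-0.995), a ubiquitin ligase of antiviral signalling. Of these neighbours AAK1 had the longest annotated transcript, 21157 bases, and BLOC1S1 the shortest, 1229 bases.

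The genes whose pattern over the 6 libraries was nearest to that of NFAT5, by the root mean square difference in log2 counts centred on the control mean, were SMCR8 (0.12), UTRN (0.20), ZNRF2P2 (0.21), TET2 (0.21) and MRTFB (0.22), out of 10292 genes. SMCR8 had 425, 422 and 365 normalized counts in the controls and 175, 165 and 248 after IRE1, so that the third treated library was also the highest here. TET2, a DNA demethylase mutated in blood cancers, had 284, 285 and 252 in the controls and 126, 138 and 181 after IRE1. The likeness includes the fold change itself, the libraries' common order and their depth. NFATC3 stood at place 526 in that order, NFATC2 at 615 and NFATC1 at 6430.

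Transcript length moved with the fold change over the whole data set. The Spearman correlation of the log2 fold change with the longest annotated transcript was -0.52 over 14111 genes, which are not independent replicates. Of the 626 tested genes with a transcript over 10 kb, 86.6% had a log2 fold change below 0, with a median of -0.25, while the median over all tested genes was 0.0045. The longest transcripts have 14219 bases for NFAT5, 7519 for NFATC2, 6328 for NFATC3 and 4873 for NFATC1, so the NFAT gene without a decrease is also the one with the shortest transcript of the 4. NFAT5 lay below the bulk of its length class, since 5 of the 626 genes had a lower value. A low fold change was what chose NFAT5, so nothing is read from its low place among these genes.

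Within libraries, the difference from the control mean was correlated with transcript length (Spearman, across genes). For a control, the mean of the other controls was used. The correlation was -0.48, -0.49 and -0.39 in the 3 IRE1-treated libraries and 0.07, 0.14 and -0.22 in the controls. With GC content it was 0.22, 0.27 and 0.03 in the IRE1-treated libraries and -0.17, -0.15 and 0.30 in the controls. The third treated library, where NFAT5 was highest, thus also had the weakest of the 3 relations with length. With the trend of each library with length and GC content removed, the log2 fold change was -0.80 for NFAT5, -0.25 for NFATC3, -0.19 for NFATC2 and 0.14 for NFATC1. These compare with -1.06, -0.40, -0.37 and 0.09 without that step.

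**Figure D4:**
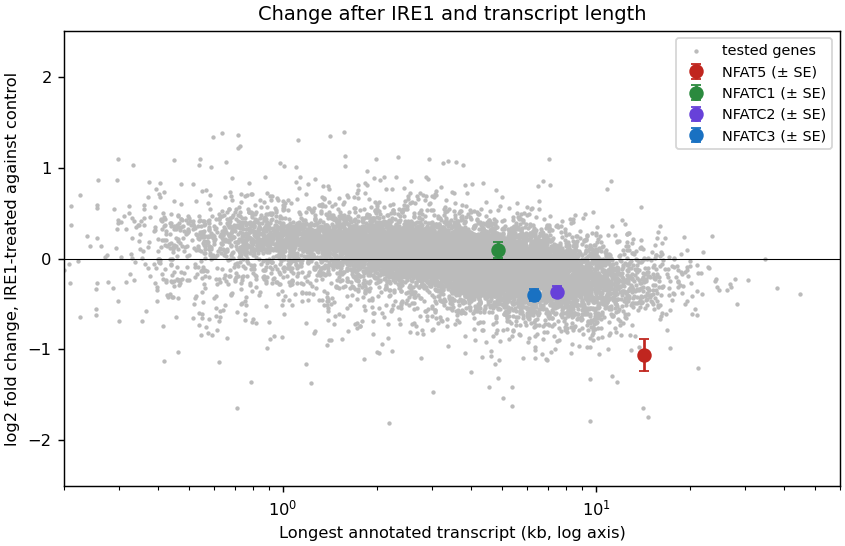
Log2 fold change of IRE1-treated against control libraries plotted against the longest annotated transcript in kb (log axis). Grey points are tested genes (13 lie outside the axes) and coloured points are the 4 NFAT genes with the SE from the edgeR fit. Long transcripts tend to lie below 0. NFAT5, chosen for its low fold change, is at 14.2 kb and -1.06, below nearly all genes of its length.

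The proteins that act on NFAT, and the genes that NFAT acts on, were then followed as 9 lists. Of their 103 genes, 83 were tested, 25 of these were lower after IRE1 (30.1%) and 8 were higher (9.64%). Among all tested genes 22.7% were called with edgeR at an adjusted p under 0.05, 12.4% as lower and 10.3% as higher. The median log2 fold change was -0.08 over the 83 genes and 0.0045 over all genes. The count of lower genes was 15 without the first control and 13 without the second. It was 11 with the trend in length and GC content removed, of which 9 were among the 25. Over all tested genes, the lower calls went from 1781 to 972, 992 and 779 in the same fits. The higher genes numbered 3 without the first or without the second control, and 4 without the third control or without the second IRE1-treated library. Over all tested genes, the higher calls went from 1489 to 709, 638, 947 and 893 in these fits. Of the 25 lower genes 13 passed in all 6 fits that left out 1 library, and of the 8 higher genes 2 did. The 25 lower genes had a median longest transcript of 7648 bases and the 8 higher genes one of 2067 bases. In the values that follow, p is edgeR's, adjusted over all tested genes.

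Calcineurin and the calmodulins, which switch the NFATC proteins on, gave 7 tested genes, of which 2 were lower and 1 was higher. PPP3CA, a catalytic subunit of calcineurin, fell from 1417 ± 13.4 to 1115 ± 55.7 normalized counts (SD, n = 3, log2 fold change -0.34, edgeR adjusted p = 6.19e-04). It kept its call in all 15 alternative fits. The other catalytic subunits, PPP3CC (-0.05, edgeR adjusted p = 0.571) and PPP3CB (-0.10, edgeR adjusted p = 0.391), did not pass the threshold. PPP3CC had more counts in the controls than PPP3CA, with a mean of 2672. PPP3R1, the regulatory subunit, fell by 0.23 on the log2 scale (edgeR adjusted p = 0.0287), and CALM2, a calmodulin gene, rose by 0.14 (edgeR adjusted p = 0.0371). Both of these calls were lost without the first control, the second control or the second IRE1-treated library, that of PPP3R1 also without the first IRE1-treated library (edgeR adjusted p up to 0.149) and that of CALM2 without the third control (up to 0.162).

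Of the genes of calcium entry and release, 14 were tested, 3 were lower and 2 were higher. ITPR1, an inositol trisphosphate receptor that releases calcium from the endoplasmic reticulum, had the lowest log2 fold change (-0.67, edgeR adjusted p = 0.0239), and its groups overlapped. Its relative ITPR3 fell by 0.25 on the log2 scale (edgeR adjusted p = 0.0115). With the length and GC trend removed, the adjusted p was 0.142 for ITPR1 and 0.666 for ITPR3, past the threshold for neither. ORAI3, a channel of the plasma membrane, rose by 0.28 (edgeR adjusted p = 0.0109), and CD79B, a signalling chain of the B cell receptor, rose by 0.26 (edgeR adjusted p = 0.00659). With the trend removed their adjusted p was 0.0580 and 0.224. Leaving out the first or the second control also ended the calls of ITPR1 (edgeR adjusted p up to 0.134, lost without the third IRE1-treated library too) and ITPR3 (up to 0.0727). ORAI3 lost its call without the second control (0.0775) and CD79B without the first (0.0565). ORAI1 was not analysed here.

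Among 7 tested inhibitors of calcineurin, PPIA was the single gene that changed. It encodes cyclophilin A, which blocks calcineurin once cyclosporin is bound, and it rose from 18943 ± 137 to 24104 ± 1634 normalized counts (SD, n = 3, log2 fold change 0.35, edgeR adjusted p = 3.22e-04), with a call in all 15 alternative fits. RCAN1, an inhibitor that NFAT itself induces, had the lowest value of this list (-0.19, edgeR adjusted p = 0.141).

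The kinases that put phosphates back on NFAT and the carriers that move it through the nuclear pore gave 13 tested genes, of which 5 were lower and 0 were higher. DYRK2 (-0.40, edgeR adjusted p = 0.0497) and DYRK1A (-0.38, edgeR adjusted p = 0.00232) prime NFAT for export, and XPO1 (-0.36, edgeR adjusted p = 0.00241) is the exportin. GSK3B, which phosphorylates NFAT after priming, fell by 0.23 on the log2 scale (edgeR adjusted p = 0.0108). The highest value was that of GSK3A (0.07, edgeR adjusted p = 0.442). None of the 5 calls passed with the length and GC trend removed, where the adjusted p was 0.359 for DYRK1A and 0.0971 for XPO1. The call of DYRK2 was lost on leaving out any library but the third control (edgeR adjusted p up to 0.193), and that of GSK3B without the first or the second control (up to 0.0630).

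The partners of NFAT on DNA gave 15 tested genes, of which 7 were lower and 0 were higher. EP300 and CREBBP, histone acetyltransferases that NFAT recruits, fell from 3161 ± 143 to 2158 ± 156 normalized counts and from 1674 ± 81.5 to 1162 ± 134 (SD, n = 3). Their log2 fold changes were -0.55 (edgeR adjusted p = 3.80e-05) and -0.52 (edgeR adjusted p = 2.23e-04). MEF2A, a calcium-responsive factor, fell by 0.35 on the log2 scale (edgeR adjusted p = 9.14e-04). These 3 calls held in all 15 alternative fits. MAF, which t(14;16) overexpresses in other myelomas, fell by 0.26 (edgeR adjusted p = 0.00427), with an adjusted p of 0.184 once the trend was removed. With that step the list held 3 lower genes in place of 7, since MEF2C, MEF2D and FOSL2 lost their calls too (edgeR adjusted p 0.752, 0.208 and 0.665). The calls of MEF2D (up to 0.0727) and FOSL2 (up to 0.146) were also lost without the second control, the third control or the second IRE1-treated library, and that of FOSL2 without the first control. BATF had the highest value (0.49, edgeR adjusted p = 0.333).

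Most classical targets of the calcineurin and NFAT pathway could not be measured in this plasma cell line. Of 17 genes, 4 were tested and none changed. RCAN1 was the lowest (-0.19) and CSF2, a cytokine gene, the highest (0.14, edgeR adjusted p = 0.434), and the value of CSF2 turned to -0.04 once the length and GC trend was removed. IL2, IL4, IL21, TNF, TNFSF11 and PDCD1 had 0 counts in all libraries.

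The regulators of NFAT5 gave 11 tested genes, of which 6 were lower and 1 was higher. WNK1, a kinase that senses chloride and cell volume, fell from 4341 ± 225 to 2952 ± 209 normalized counts (SD, n = 3, log2 fold change -0.56, edgeR adjusted p = 3.80e-05). ATM, a DNA damage kinase, fell by 0.49 on the log2 scale (edgeR adjusted p = 7.28e-04), and it is also one of the genes that the study chose from these samples, so it adds no independent evidence. PTPN11, the phosphatase SHP-2, fell by 0.40 (edgeR adjusted p = 5.64e-04). These 3 calls held in all 15 alternative fits. AKAP13, a scaffold protein with a longest transcript of 13327 bases, fell by 0.36 (edgeR adjusted p = 7.04e-04), with an adjusted p of 0.0865 once the trend was removed. With that step the list held 3 lower genes in place of 6 and 0 higher in place of 1, since PLCG1 and DHX9 lost their calls too (edgeR adjusted p 0.927 and 0.306). Both were also lost without any 1 of the controls, PLCG1 without the third IRE1-treated library (up to 0.111) and DHX9 without the second (up to 0.206). CDK5 rose by 0.19 (edgeR adjusted p = 0.0396), a call that held in 4 of the 15 alternative fits and was lost on leaving out any library but the third IRE1-treated one (edgeR adjusted p up to 0.191).

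The NFAT5 target genes were split, with 2 lower and 2 higher of 11 tested. S100A4, a calcium-binding protein with a longest transcript of 755 bases, rose from 2508 ± 95.6 to 3315 ± 339 normalized counts (SD, n = 3, log2 fold change 0.40, edgeR adjusted p = 6.19e-04), with a call in all 15 alternative fits. AKR1B1, the aldose reductase that makes the osmolyte sorbitol, rose by 0.17 (edgeR adjusted p = 0.0190), and its call was lost in 8 of the 15, among them those without any 1 of the controls or without the second IRE1-treated library (edgeR adjusted p up to 0.114). SLC38A2, an amino acid carrier, fell by 0.25 on the log2 scale (edgeR adjusted p = 0.0173) and SLC6A6, the taurine carrier, by 0.20 (edgeR adjusted p = 0.0419), neither past the threshold once the trend was removed. SLC38A2 lost its call without the first or the second control (edgeR adjusted p up to 0.0881), and SLC6A6 on leaving out any library but the third IRE1-treated one (up to 0.193). SGK1, a kinase induced by hypertonic stress, had the lowest value of the list (-0.35, edgeR adjusted p = 0.0645). AQP2, the water channel of the kidney, had 0 counts in all libraries. SLC5A3 was also listed at 0, but it shares exons with 2 genes on the same strand, and how pairs on shared exons were counted is not given in the sources used here, so its level is not known. Since the RNA was treated after extraction, no target gene could respond to a loss of NFAT5 in this experiment.

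The NF-kB/Rel genes, the nearest relatives of the NFAT family, differed among themselves. REL, the c-Rel gene, had normalized counts of 107, 91.4 and 97.6 in the controls and of 21.6, 46.4 and 50.4 after IRE1. The groups did not overlap, and the first treated library was the lowest. REL fell with a log2 fold change of -1.30 (SE 0.218, edgeR adjusted p = 8.25e-04), below the value of NFAT5, and kept its call in all 15 alternative fits, although it had 431 counts in all. NFKB2 rose by 0.17 on the log2 scale (edgeR adjusted p = 0.0451), with overlapping groups and a call in 7 of the 15 alternative fits, lost on leaving out any library but the third IRE1-treated one (edgeR adjusted p up to 0.178). NFKB1, RELA and RELB did not pass the threshold, with log2 fold changes of -0.0010, -0.04 and 0.13. The longest transcript of REL, 11255 bases, is also long.

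**Figure D5:**
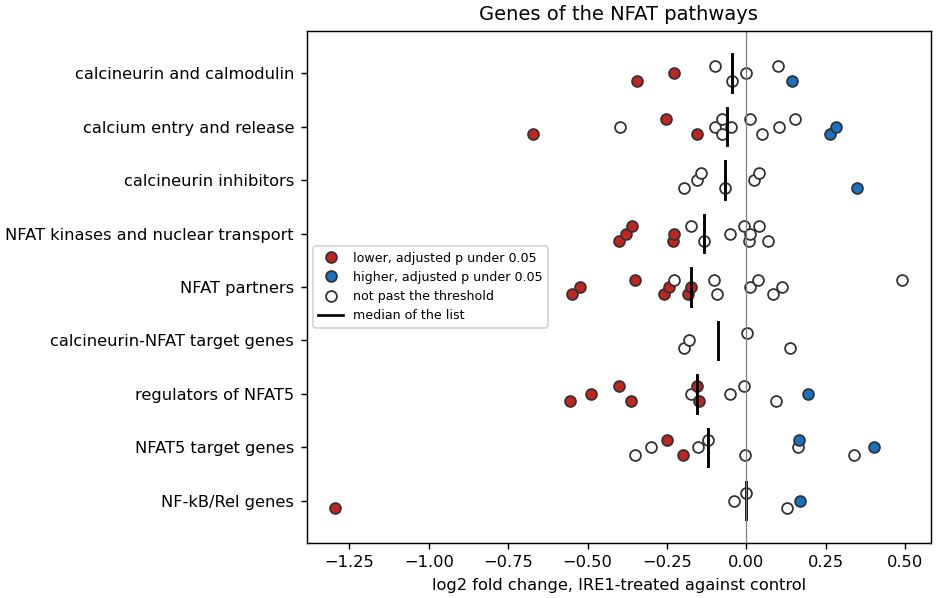
Log2 fold change of IRE1-treated against control libraries for the tested genes of 9 lists around the NFAT family, 1 point per gene. Red and blue points passed an edgeR adjusted p of 0.05 (lower and higher), open points did not, and black lines are medians. The kinases and the partners of NFAT hold 5 and 7 lower genes and 0 higher ones (0 and 3 lower with the length and GC trend removed), and REL (-1.30) stands apart from the other Rel genes.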

How the data were processed

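RNA-seq was analysed for 6 libraries, 3 control and 3 IRE1-treated, grouped by the labels' cleavage assay entry. The series text calls them biological replicates of the line, without saying how they were kept apart, so p-values measure the spread between these samples. Per the labels and the paper's methods, reads were trimmed with Cutadapt 1.12, aligned to GRCh37 with STAR 2.5.3a and counted per Ensembl gene with HTSeq 0.6.1p1, and the authors deposited raw counts per gene. The strand setting and overlap mode of the counting are not given in the sources used here. A CPM table that the authors deposited served in 1 alternative. HTSeq's summary lines, 21.4 to 23.2% of each file's counts, were left out.

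Counts were fitted with edgeR 4.0.16 (R 4.3.3), with its filter on low counts, TMM scaling, the quasi-likelihood test without covariates, Benjamini-Hochberg adjustment over 14398 genes and a threshold of 0.05. To normalize, each count was divided by its library's TMM-scaled size and multiplied by the mean of the library sizes before TMM scaling. The fits were tested beforehand on simulated counts with planted changes. Intervals for single counts were not given, and the fits include counting error. No 2 libraries agreed within sampling noise (lowest chi-square per gene 2.20). Samples with the same number did not deviate together (r = -0.04, -0.0050 and -0.11), so the numbers were not taken to pair them.

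The members and the lists were chosen with earlier results of these data known. The named genes are the NFAT genes, and the lowest and the highest tested gene of each list with up to 4 that passed the threshold. The 5 genes most like NFAT5, its neighbours in the order of log2 fold change and the known substrates BLOC1S1 and XBP1 are also named. Some further genes of the lists are named beside them. GENCODE release 44, lifted to GRCh37, gave names, positions and transcripts, with a symbol for 55538 identifiers. Sites were folded with ViennaRNA 2.7.2. For XBP1 the unspliced transcript was used. As alternatives, DESeq2 1.42.0 was run, as was limma 3.58.1 on the log2 CPM (pseudocount 1). The edgeR fit was repeated with upper quartile scaling or plain library sizes, without the filter or with 10 counts asked of all libraries, with a replicate block, with a loess trend on transcript length and GC content taken out, with block and trend steps combined, and after leaving out each library. A comparison of the NFAT proteins was not made here, and exon counts were not used here.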

Additional observations from a re-analysis of the deposited data

How the results depend on the processing

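NFAT5, NFATC2 and NFATC3 stayed below 0 in all 15 alternative fits, which reused the same libraries. NFATC1 ranged from 0.017 to 0.167, beside an SE of 0.0895 in the main fit, so its direction was not settled. Leaving out 1 library gave -1.40 to -0.92 for NFAT5, with -1.40 without the third IRE1-treated library. With the length and GC trend removed, NFATC2 came to -0.19 and NFATC3 to -0.25, and the same values, -0.19 and -0.25, were found with the replicate block added. Counts of changed genes over all genes were 3270 in the main analysis, 1967 with the trend removed (779 lower, 39.6% of calls against 54.5% before) and 1714 with the trend removed and the replicate block (669 lower, 39.0%). With library size only, 683 genes were higher and 79.2% of calls were lower, since the median of all genes moved to -0.07. With the replicate block alone, 2613 genes were called, and no hint of pairing stood behind it. Leaving out 1 library gave 1630 to 4312 changed genes, 972 to 2221 lower and 638 to 2091 higher.

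In the lists, the 25 lower genes became 11 with the trend removed and 10 with the replicate block and the trend removed, and 13 to 27 without 1 library. The 8 higher genes became 4 with library size only, 4 with the replicate block, 4 with the block and the trend removed, and 3 to 9 without 1 library. CSF2 turned to -0.0406 with the trend removed and to -0.0390 with the block as well, and GSK3A to -0.0079 with library size only. Of the levels, NFATC1 (7.57) and NFATC2 (24.7) moved with the longest transcript as length. Hairpin sites read as CTGCAG only numbered 2 in NFAT5, 1 in NFATC1, 1 in NFATC2, 2 in NFATC3 and 0 in NFATC4. With 25 bases folded on either side, CNGCAG hairpin sites numbered 4 in NFAT5 (none of them CTGCAG) and 1 in NFATC3, and with a loop of 7 bases 0 in NFAT5, 0 in NFATC1, 0 in NFATC3 and 0 in NFATC4. Except where the construction of an alternative shows it (fewer samples, a narrower motif or loop), the cause was not tested. NFAT5 rests on 53 to 189 counts per library, and its coefficient of variation was 6.06% in the controls and 34.4% after IRE1.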
